A study of Mus musculus with 6 samples.

Results

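The 9 genes described here carry the hormonal signals that switch fat breakdown on and off in white fat. They were chosen by name as Adrb1, Adrb3, Adcy5, Prkaca, Prkar2b, Pde3b, Npr1, Npr3 and Prkg1, and all 9 were found among the 54532 genes listed. Their RNA was measured by RNA-seq in the visceral fat pad that lies along the epididymis (eWAT) of 3 cachectic and 3 control mice. Cachexia is the wasting of fat and muscle that accompanies cancer. All mice were male C57BL/6 animals, 6 to 10 weeks old at the start. The cachectic mice had received LLC cells, a mouse lung carcinoma line that was injected under the skin, and were harvested on day 21, with a loss of over 20% of body weight defining cachexia. The control mice carried no tumor. Each library was made from a whole fat pad, so all cell types of the tissue contributed RNA, and the model rests on 1 transplanted tumor line in 1 sex.

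In an adipocyte, norepinephrine from sympathetic nerves binds beta-adrenergic receptors, the G protein Gs activates adenylyl cyclase, and the resulting cAMP releases the catalytic subunits of protein kinase A (PKA), which phosphorylate perilipin and hormone-sensitive lipase so that stored triglyceride is cut. Natriuretic peptides from the heart reach the same lipases through the guanylyl cyclase receptor Npr1, cyclic GMP and protein kinase G. The receptor Npr3 removes natriuretic peptides from the circulation, and the insulin-activated phosphodiesterase Pde3b degrades cAMP. In rodents Adrb3 is the main beta receptor of white and brown adipocytes.

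The promoters of the 2 natriuretic peptide receptor genes and of the minor beta receptor gene are shown because the RNA of these 3 genes had the widest contrasts between the groups among the genes with a promoter entry. Each run holds the 170 bases before the start of the transcript, from RefSeq on the mouse build GRCm38.p6, at chr15:11907372-11907541 on the minus strand for Npr3, chr3:90465867-90466036 on the minus strand for Npr1 and chr19:56721947-56722116 on the plus strand for Adrb1. Capitals mark TGACG, the short form of the cAMP response element, and CCAAT, searched on both strands so that the reverse letters CGTCA and ATTGG count too.
Npr3: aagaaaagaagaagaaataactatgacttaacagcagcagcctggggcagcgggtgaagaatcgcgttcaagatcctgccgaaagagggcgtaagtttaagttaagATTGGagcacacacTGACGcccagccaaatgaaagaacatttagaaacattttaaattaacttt
Npr1: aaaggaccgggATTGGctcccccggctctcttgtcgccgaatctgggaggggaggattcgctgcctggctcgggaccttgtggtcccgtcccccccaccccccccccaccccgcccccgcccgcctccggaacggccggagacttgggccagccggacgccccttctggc
Adrb1: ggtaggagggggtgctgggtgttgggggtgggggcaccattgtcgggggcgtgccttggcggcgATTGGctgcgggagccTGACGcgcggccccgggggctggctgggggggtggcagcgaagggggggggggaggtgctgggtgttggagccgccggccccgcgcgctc
The Npr3 stretch had a GC content of 41.2%, against 73.5% for Npr1 and 77.6% for Adrb1. Over the whole windows of 300 bases around the start, TGACG was found for Npr3, Adrb1 and Prkaca, 3 of the 7 genes with an entry, and in 21% of all 27025 promoters. CCAAT was found for 5 of the 7 (Npr1, Npr3, Adrb1, Prkaca and Prkg1) and in 37.9% of all promoters. The full cAMP response element TGACGTCA (1.88% of all promoters) and TATAAA (14.2%) were in none of the 7 windows. These are matches of letters, and binding of a factor was not measured.

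The libraries held between 14928766 and 18855546 counts. The leading component of expression, with 57.6% of the variance, separated the cachectic from the control mice. Control 1 stood apart on the next component (16.3% of the variance), with a coordinate of 47.2 against -28.8 and -23.3 for the other controls. Adipocyte RNA was abundant in both groups. Adiponectin (Adipoq) reached 1900 ± 249 CPM, counts scaled to a common library size, in control and 2760 ± 1290 CPM in cachectic mice (mean ± SD, n = 3 in each group here and below), and its groups overlapped. Of 12 adipocyte markers, 2 were higher and 1 was lower by edgeR, beside 9% and 8.63% of all tested genes. The log2 fold changes were 2.35 for Pck1, 0.87 for Cidec and -3.14 for Lep (Pck1 and Lep were chosen after their values were seen). The median of the 12 was -0.23, so Adipoq, at 0.54, does not stand for all of them. Lcn5, an epididymal gene, had 1 count in control 1 and none in the other libraries, and the summed level of 7 epididymal markers was 4.52 CPM in control 1 and 0.553 to 1.63 CPM elsewhere, with Adam7 at 61, 4 and 0 counts in control and 17, 0 and 0 in cachectic mice (Adam7 was chosen after its values were seen). Th, the enzyme of norepinephrine synthesis that marks sympathetic nerves, had 4 counts in control 1 and none elsewhere. Its RNA was thus too scarce to measure nerve content in either group. In bulk tissue, fewer cells of a type and less RNA per cell cannot be told apart.

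Across the 9 genes, the clearance receptor Npr3 was strongly lower in cachectic mice, 5 genes had groups that did not overlap, and Adrb3, the receptor with the highest level per gene length, had overlapping groups. All 9 genes passed the filter on low counts. By edgeR's quasi-likelihood test with Benjamini-Hochberg adjustment over 16003 genes, 1 of the 9 (Npr3) was lower at an adjusted p under 0.05 and 0 were higher. At an unadjusted p under 0.05, 4 were lower (Adrb1, Prkaca, Prkar2b and Npr3) and 1 was higher (Npr1), and DESeq2 called the same 5. How many of all tested genes pass an unadjusted p under 0.05 was not counted, here or below. The shares that follow do not apply to that cut. Of all tested genes, 17.6% were called by edgeR, 8.63% lower and 9% higher, and DESeq2 called 24.4%, 12.1% lower and 12.3% higher. The call of Npr3 was lost in 3 of the 6 fits that left out a library. Those fits called 7.92% (without control 2), 5.02% (without control 3) and 12.1% (without cachexia 1) of all tested genes. With any library left out, fewer of all tested genes were called (828 to 2339, against 2821 in the full fit), which applies to every call lost below. Npr1 was called higher with no filter on low counts (4.35% of all genes were) and over protein-coding genes alone (9.33%). Without cachexia 3, Adrb1 and Npr3 were called lower and Npr1 higher, beside 6.92% and 7.25% of all tested genes. The 5 genes without overlap between the groups compare with 40.5% of all tested genes that had none. The median log2 fold change was -0.08 over the 9 genes and 0.00 over all tested genes. Intervals given below are 95% intervals without adjustment.

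**Figure D1:**
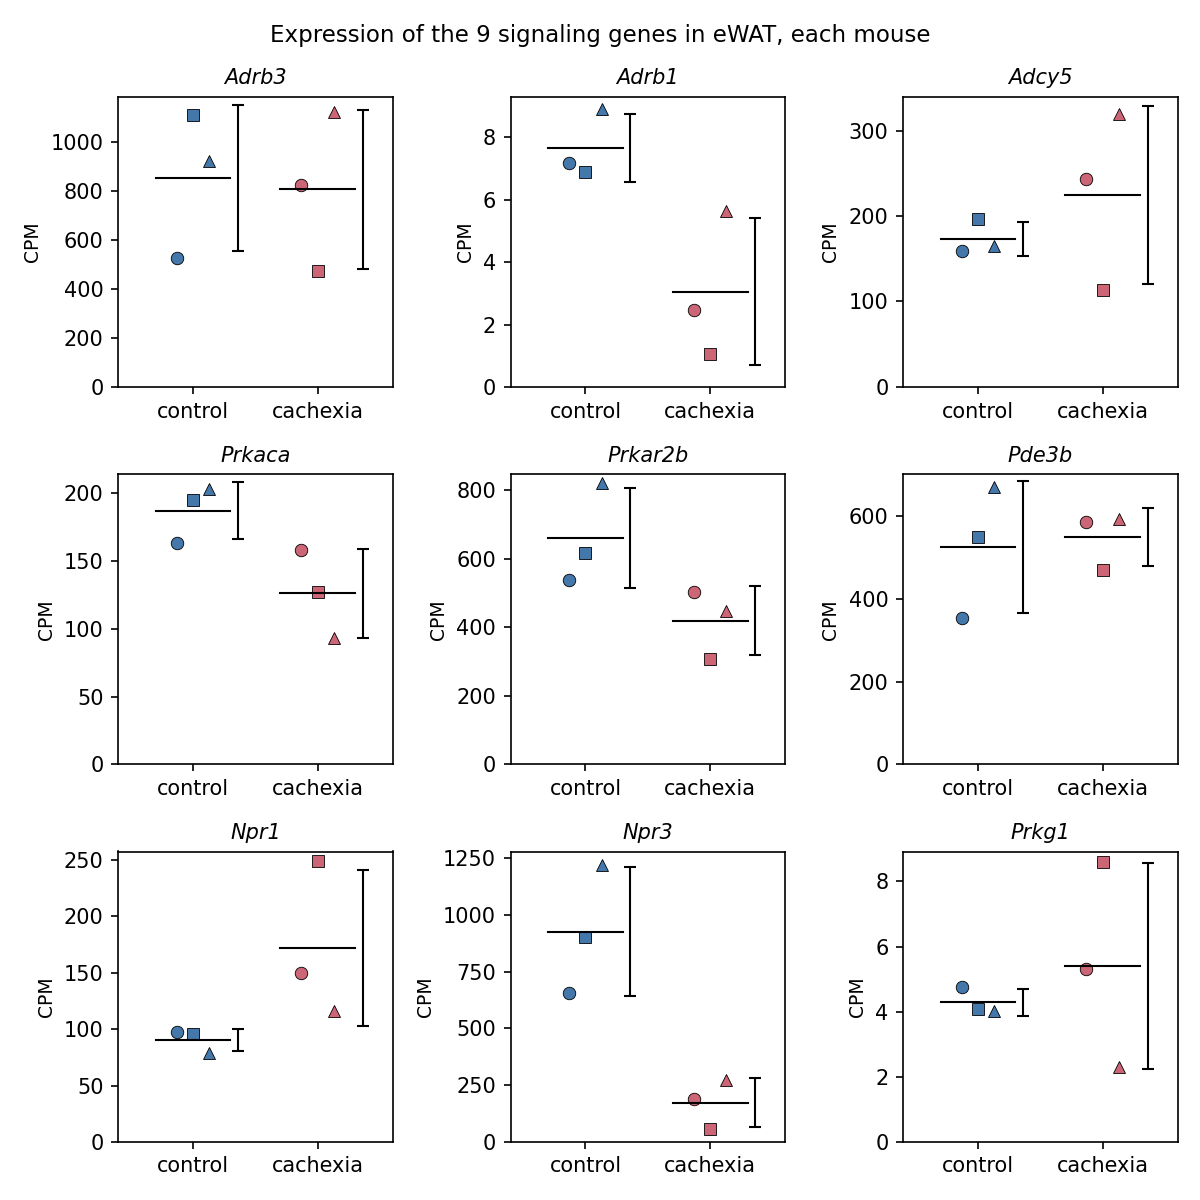
Expression in CPM of each of the 9 genes in each of the 6 mice (points), with the group mean (bar), on axes that start at 0. Npr3 lies between 655 and 1220 CPM in control and between 57.2 and 274 CPM in cachectic mice, whereas the groups of Adrb3, Adcy5, Pde3b and Prkg1 overlap.

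Adrb3 (chr8:27225776-27250616, minus strand) encodes the main adipocyte beta receptor. It had 526, 1110 and 923 CPM in control 1, 2 and 3, and 825, 472 and 1120 CPM in cachexia 1, 2 and 3. Cachexia 2 was the lowest and cachexia 3 the highest of all 6 mice, so the groups overlapped. The means were 852 ± 297 and 807 ± 326 CPM, and the log2 fold change of cachexia over control was -0.08 (SE 0.37, interval -0.94 to 0.78, adjusted p = 0.902 by edgeR), an interval wide enough to hold a change in either direction. Of its exonic bases, 24.9% are shared with Gm45470 on the other strand, and whether the counting used strand is not given in the sources used here.

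Adrb1 (chr19:56722372-56724862, plus strand), the receptor through which catecholamines mainly drive the heart and which adipocytes also carry, was far less abundant. It had 7.17, 6.88 and 8.90 CPM in control and 2.45, 1.04 and 5.64 CPM in cachectic mice. Every cachectic mouse lay below every control, with cachexia 3 nearest to the controls. The means were 7.65 ± 1.09 and 3.04 ± 2.35 CPM, with a log2 fold change of -1.33 (SE 0.53, interval -2.56 to -0.10), and the adjusted p of 0.121 by edgeR missed the threshold. DESeq2 gave an adjusted p of 0.0498. Without cachexia 3 the log2 fold change was -2.12, with an adjusted p of 0.0262 by edgeR. Of 17 other settings, these 2 were the only ones that called Adrb1. With any other library left out, its adjusted p was 0.161 to 0.273 by edgeR, and the log2 fold change was -0.92 without cachexia 2.

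The alpha receptors that lower cAMP or act through calcium were all low. Adra2a, the inhibitory alpha receptor that couples to Gi, had 4.92, 6.08 and 5.27 CPM in control and 2.10, 1.66 and 1.57 CPM in cachectic mice. It fell, with a log2 fold change of -1.60 (SE 0.29, adjusted p = 0.011 by edgeR), but the adjusted p was 0.0516 without control 3. Adra1b, which signals through Gq, went from 4.05 ± 1.05 to 1.25 ± 0.701 CPM, with a log2 fold change of -1.69 (SE 0.48, adjusted p = 0.0483 by edgeR), a call lost when any library but cachexia 1 was left out, at adjusted p-values from 0.0723 to 0.11. Adra1a (log2 fold change -0.61, adjusted p = 0.343), Adra1d (-0.22, 0.741), Adra2b (-1.62, 0.281) and Adra2c (-1.06, 0.457) did not pass edgeR's test. The ratio of Adrb3 to Adra2a within a mouse was 120, 205 and 197 in control and 442, 320 and 804 in cachectic mice in FPKM, which divides the count by gene length and library size. The groups did not overlap, and the log2 ratio differed by 1.52 (two-sided exact permutation test, p = 0.1, the smallest that 3 against 3 mice can give, adjusted p = 0.15 over 6 ratios). The ratio of Adrb3 to Adrb1 was likewise higher in all cachectic mice, at 249, 333 and 147 against 54.1, 119 and 76.5, a log2 difference of 1.54 (exact permutation p = 0.1, adjusted p = 0.15).

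Adcy5 (chr16:35154877-35305738, plus strand), an adenylyl cyclase that Gs activates and Gi inhibits, had 159, 196 and 165 CPM in control and 243, 113 and 319 CPM in cachectic mice. Cachexia 1 and 3 were above all controls and cachexia 2 was below them. The log2 fold change was 0.38 (SE 0.33, interval -0.39 to 1.15, adjusted p = 0.465 by edgeR). It was 0.04 without cachexia 3 and 0.70 without cachexia 2 (adjusted p = 0.0524), so this value rests on single mice. Of the summed FPKM of all 10 adenylyl cyclases listed, Adcy5 held 31.7 ± 2.14% in control and 37.0 ± 15.1% in cachectic mice, which overlapped.

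Other cyclases changed. Adcy4, which Gs and G protein beta-gamma subunits activate, rose from 31.1 ± 2.92 to 100 ± 5.87 CPM (log2 fold change 1.69, SE 0.13, adjusted p = 0.000878 by edgeR), and its share of cyclase FPKM went from 8.75 ± 0.404% to 26.2 ± 4.50%. Adcy7 fell from 43.0 ± 1.83 to 17.7 ± 3.94 CPM (log2 fold change -1.28, adjusted p = 0.00498). The soluble cyclase Adcy10, which bicarbonate activates, had 48, 44 and 41 counts in control and 2, 5 and 0 in cachectic mice, and was also lower (adjusted p = 0.00999). Of 14 tested subunits of G proteins, 0 rose and 2 fell at an adjusted p under 0.05 by edgeR (1 and 3 at an unadjusted p under 0.05, and 1 and 3 by DESeq2). Gnb5 had a log2 fold change of -1.37 (adjusted p = 0.00388). Gnb4 had one of -1.25 (adjusted p = 0.0172), a call lost without control 3 (0.0706), cachexia 1 (0.0566) or cachexia 3 (0.0503).

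Prkaca (chr8:83972993-83996443, plus strand) encodes the main catalytic subunit of PKA. It had 163, 195 and 203 CPM in control and 158, 127 and 92.8 CPM in cachectic mice, so that cachexia 1 lay just under the lowest control. The means were 187 ± 21.2 and 126 ± 32.6 CPM, with a log2 fold change of -0.57 (SE 0.21, interval -1.05 to -0.09) and an adjusted p of 0.0953 by edgeR and 0.0478 by DESeq2. Prkar2b (chr12:31958476-32061296, minus strand), the regulatory subunit that holds PKA inactive and is typical of adipocytes, had 539, 618 and 822 CPM in control and 504, 307 and 447 CPM in cachectic mice. Cachexia 1 was again the cachectic mouse nearest to the controls, without overlap. The log2 fold change was -0.65 (SE 0.24, interval -1.22 to -0.09), with an adjusted p of 0.104 by edgeR and 0.0354 by DESeq2.

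Both PKA subunits were thus lower in every cachectic mouse without passing edgeR's threshold, and their ratio within a mouse did not separate the groups. Prkar2b over Prkaca was 2.25, 2.16 and 2.75 in control and 2.17, 1.65 and 3.28 in cachectic mice on the FPKM scale (log2 difference -0.06, exact permutation p = 0.9). Among the regulatory subunits, the share of Prkar2b was 65.4 ± 3.66% in control and 52.9 ± 5.32% in cachectic mice, and that of Prkar1a, the widespread type I subunit, was 29.8 ± 2.84% and 40.9 ± 4.03%, both without overlap (Prkar1a was chosen after its values were seen). Prkaca kept most of the catalytic subunit RNA, 84.5 ± 4.17% and 81.9 ± 3.03%, while the summed catalytic level was 87.6 ± 5.70 FPKM in control and 60.0 ± 13.6 FPKM in cachectic mice. Relative to the summed adipocyte markers, Prkaca was at 0.344% to 0.396% in control and 0.194% to 0.404% in cachectic mice, which overlapped, and Prkar2b was at 1.16% to 1.39% and 0.863% to 0.978%, which did not. Relative to Adipoq alone neither overlapped, with Prkaca at 9.42% to 10.1% in control and 3.78% to 7.65% in cachectic mice, and Prkar2b at 29.9% to 40.7% and 12.1% to 18.5%. These ratios, too, were computed after the values were seen. In control mice the largest part of the summed adipocyte markers was Car3, also chosen after its values were seen. Car3 was at 21800 ± 5500 CPM in control and 8950 ± 5260 CPM in cachectic mice (adjusted p = 0.124 by edgeR), so the summed ratios lean on this gene. Of the 12 adipocyte markers, 2 were higher and 1 was lower by edgeR (2 and 3 by DESeq2, and 2 and 3 at an unadjusted p under 0.05), with summed levels of 41200 to 59000 CPM in control and 31400 to 58400 CPM in cachectic mice. The part of adipocyte content in the PKA values was not tested.

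PKA has its own inhibitor peptides. Pkia had a log2 fold change of -0.82 (adjusted p = 0.0141 by edgeR), a call lost without control 2 (0.0587) or control 3 (0.055). Pkig had one of 0.90 (adjusted p = 0.0482), a call lost when any library but control 1 was left out, at adjusted p-values from 0.0544 to 0.158. Of 10 tested A-kinase anchoring proteins, which tether PKA, Akap1 of the mitochondrial surface was the only gene called by edgeR (log2 fold change 0.56, adjusted p = 0.0339), where DESeq2 called 2, and the call of Akap1 was lost when any library but cachexia 3 was left out, at adjusted p-values from 0.0639 to 0.144.

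Pde3b (chr7:114415281-114539251, plus strand), through which insulin restrains lipolysis, had 354, 550 and 671 CPM in control and 585, 469 and 593 CPM in cachectic mice. The cachectic mice all fell within the range of the controls. The means were 525 ± 160 and 549 ± 69.5 CPM, with a log2 fold change of 0.06 (SE 0.25, interval -0.51 to 0.64, adjusted p = 0.882 by edgeR). Pde3b was also the leading phosphodiesterase, with 56.8 ± 6.97% of the summed FPKM of the family in control and 55.0 ± 5.61% in cachectic mice, which overlapped.

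Around Pde3b, 3 of the 16 phosphodiesterases tested rose and 1 fell by edgeR, beside 9% and 8.63% of all tested genes. Pde4d, a phosphodiesterase specific for cAMP, had 5.22, 9.0 and 8.22 CPM in control and 19.9, 28.0 and 25.7 CPM in cachectic mice, and rose by a log2 fold change of 1.71 (SE 0.24, adjusted p = 0.005 by edgeR). The ratio of Pde3b to Pde4d was 89.3, 80.6 and 108 in control and 38.8, 22.1 and 30.4 in cachectic mice on the FPKM scale, without overlap (log2 difference -1.63, exact permutation p = 0.1, adjusted p = 0.15). Pde11a, which cuts both cyclic nucleotides, fell from 8.73 ± 2.39 to 1.03 ± 0.41 CPM (log2 fold change -3.07, adjusted p = 0.00363 by edgeR). Pde1b, activated by calcium and calmodulin, had a log2 fold change of 0.86 (adjusted p = 0.03), and its call was lost when any library but cachexia 3 was left out, at adjusted p-values from 0.0657 to 0.0912. Pde4b had one of 0.43 (adjusted p = 0.0464), and its call was lost whichever library was left out, at adjusted p-values from 0.0628 to 0.149.

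Npr1 (chr3:90450591-90465866, minus strand) encodes the guanylyl cyclase that atrial and B-type natriuretic peptides activate. It had 97.2, 95.3 and 78.9 CPM in control and 150, 249 and 116 CPM in cachectic mice. All cachectic mice were above all controls, and cachexia 2 was the highest. The means were 90.5 ± 10 and 172 ± 68.9 CPM, a 1.9-fold difference with a log2 fold change of 0.92 (SE 0.27, interval 0.30 to 1.55) and an adjusted p of 0.0513 by edgeR. Of 17 other settings, 4 called this gene. The adjusted p was 0.00802 by DESeq2, and by edgeR 0.0309 with no filter on low counts, 0.0471 over protein-coding genes alone and 0.025 without cachexia 3. The other 13 settings did not call it, with adjusted p-values up to 0.171 (edgeR without control 3). Without cachexia 2 the log2 fold change was 0.56 with an adjusted p of 0.079 by edgeR. Of its exonic bases, 11.7% are shared with Gm16048 on the other strand.

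Several endothelial markers were also higher in cachectic mice. Of 8 such markers, 4 were higher in cachectic mice by edgeR (6 by DESeq2), their summed level was 1560 to 1610 CPM in control and 2210 to 3170 CPM in cachectic mice, and Pecam1 rose from 355 ± 10.1 to 793 ± 251 CPM (log2 fold change 1.16, adjusted p = 0.017 by edgeR). As a percentage of the summed endothelial markers, Npr1 was at 5.06% to 6.23% in control and 5.25% to 7.85% in cachectic mice, which overlapped. This ratio was computed after the values were seen, and the part of endothelial cells in the Npr1 result was not tested.

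Npr3 (chr15:11839896-11907287, minus strand), whose protein binds natriuretic peptides without a cyclase and takes them into the cell for degradation, had 655, 902 and 1220 CPM in control and 187, 57.2 and 274 CPM in cachectic mice. The highest cachectic mouse was far below the lowest control. The means were 927 ± 285 and 173 ± 109 CPM, a 5.37-fold lower level in cachexia, with a log2 fold change of -2.43 (SE 0.53, interval -3.65 to -1.20, adjusted p = 0.0207 by edgeR). The direction held in all 17 other settings, with log2 fold changes from -2.92 to -2.01, but the call was lost without control 2 (adjusted p = 0.0551), control 3 (0.0732) or cachexia 1 (0.0599). In those fits fewer of all tested genes were called, too. Its exonic bases overlap Gm5144 on the other strand for 3.42% of their length.

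Npr3 was also set against adipocyte and fat progenitor markers. As a percentage of the summed adipocyte markers, Npr3 was at 1.59% to 2.07% in control and 0.182% to 0.572% in cachectic mice, and as a percentage of Adipoq alone it was at 40.7% to 60.4% and 3.45% to 11.2%. As a percentage of the summed progenitor markers it was at 18.8% to 36.7% in control and 2.01% to 11.7% in cachectic mice. None of these ratios overlapped between the groups, and all were computed after the values were seen. The adipocyte sum leans on Car3, and Adipoq itself had a log2 fold change of 0.54. The part of adipocyte or progenitor content in the Npr3 result was not tested. The protein-coding genes whose log2 CPM followed Npr3 most closely over the 6 mice, out of 9762 candidates, were Mecr (Pearson r = 0.9987), an enzyme of mitochondrial fatty acid synthesis, Sri (0.9959), a calcium-binding protein, and Hsbp1 (0.9943), a binding partner of heat shock factor. The 6 mice fall into 2 groups, which these correlations share. Mecr had a log2 fold change of -1.0 (adjusted p = 0.0241 by edgeR), Sri one of -0.44 (0.0552) and Hsbp1 one of -0.33 (0.121), all smaller than that of Npr3.

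**Figure D2:**
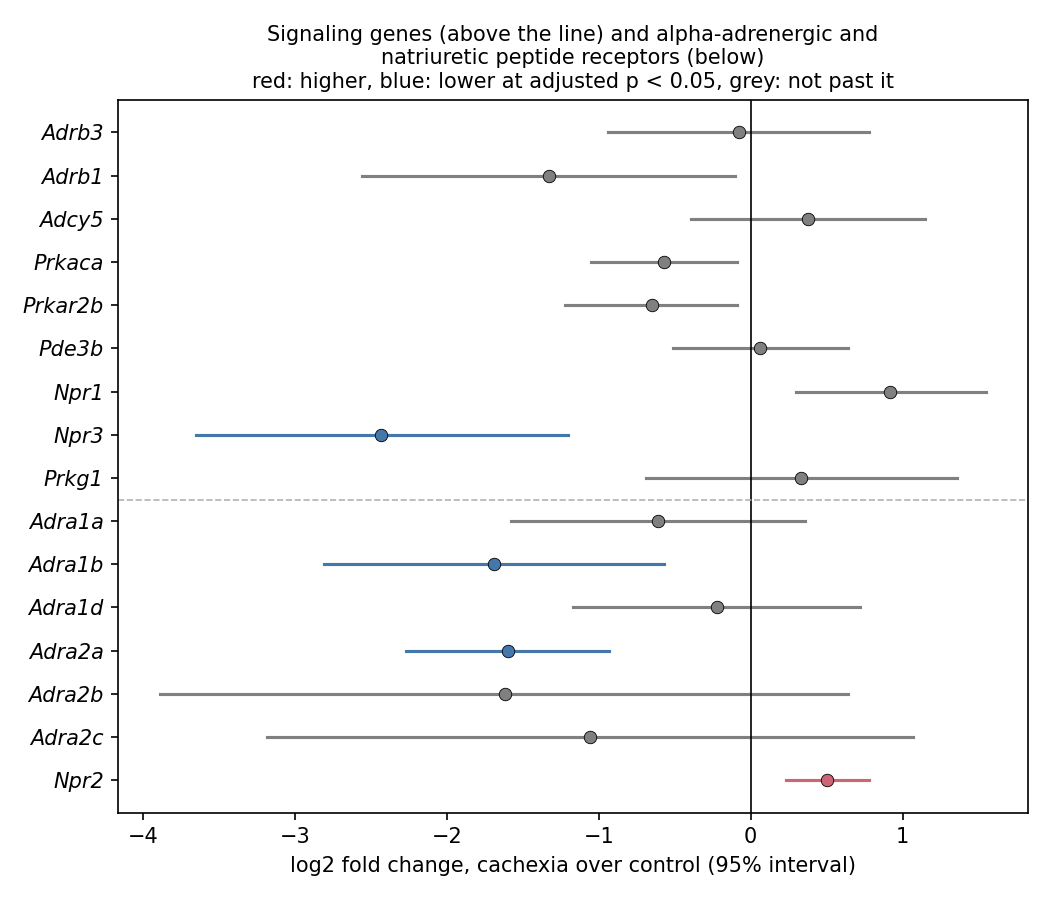
Log2 fold change of cachexia over control with its 95% interval for the 9 genes (above the line) and the alpha-adrenergic receptors and Npr2 (below), colored by direction where the adjusted p by edgeR is under 0.05. Npr3 is the only gene above the line past the threshold, at -2.43.

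Since Npr1 and Npr3 differed in opposite directions, their ratio had the largest difference of the 6 ratios compared. Npr1 over Npr3 was 0.291, 0.207 and 0.127 in control and 1.58, 8.54 and 0.831 in cachectic mice on the FPKM scale. The mean log2 ratio was -2.34 in control and 1.16 in cachectic mice, a difference of 3.51 without overlap (exact permutation p = 0.1, adjusted p = 0.15), and the difference ranged from 2.54 to 4.22 with each mouse left out in turn. Npr2, the receptor for C-type natriuretic peptide, had 82.6, 86.1 and 80.9 CPM in control and 129, 115 and 110 CPM in cachectic mice (log2 fold change 0.50, SE 0.12, adjusted p = 0.0275 by edgeR), a call lost when any control was left out (0.0621, 0.0877 and 0.128 without control 1, 2 and 3) or without cachexia 1 (0.0788). Of the summed FPKM of the receptor family, Npr3 held 71.9 ± 7.34% in control and 23.5 ± 15.3% in cachectic mice, Npr1 held 14.6 ± 4.41% and 44.7 ± 16.2%, and Npr2 held 13.6 ± 2.93% and 31.8 ± 2.80%. The summed level was 134 ± 27.7 FPKM in control and 77.7 ± 2.81 FPKM in cachectic mice, without overlap. The ligands were near or at 0 in the fat pad. Nppa had 2, 1 and 0 counts in control and Nppc had 1, 2 and 0, both had 0 counts in cachectic mice, and Nppb and Ostn had 0 counts in every library. A count of 0 allows up to 3 counts by counting error alone. By plain library totals, without TMM scaling, this is 0.159 to 0.201 CPM across the libraries.

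**Figure D3:**
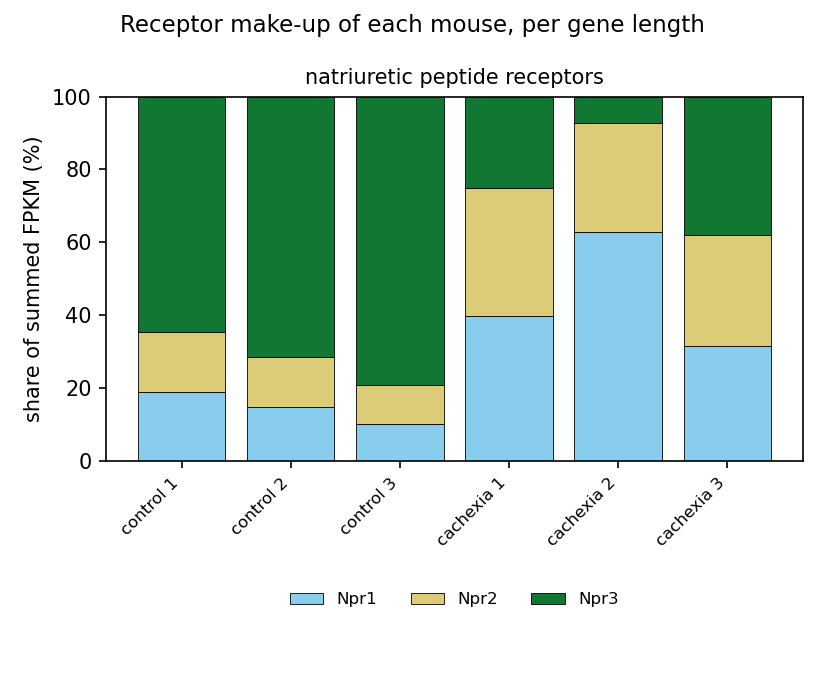
Share of the summed FPKM (%, stacked bars, 1 bar per mouse) taken by each natriuretic peptide receptor gene. Npr3 takes 64.7% to 79.4% of the bar in control and 7.36% to 37.9% in cachectic mice.

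**Figure D4:**
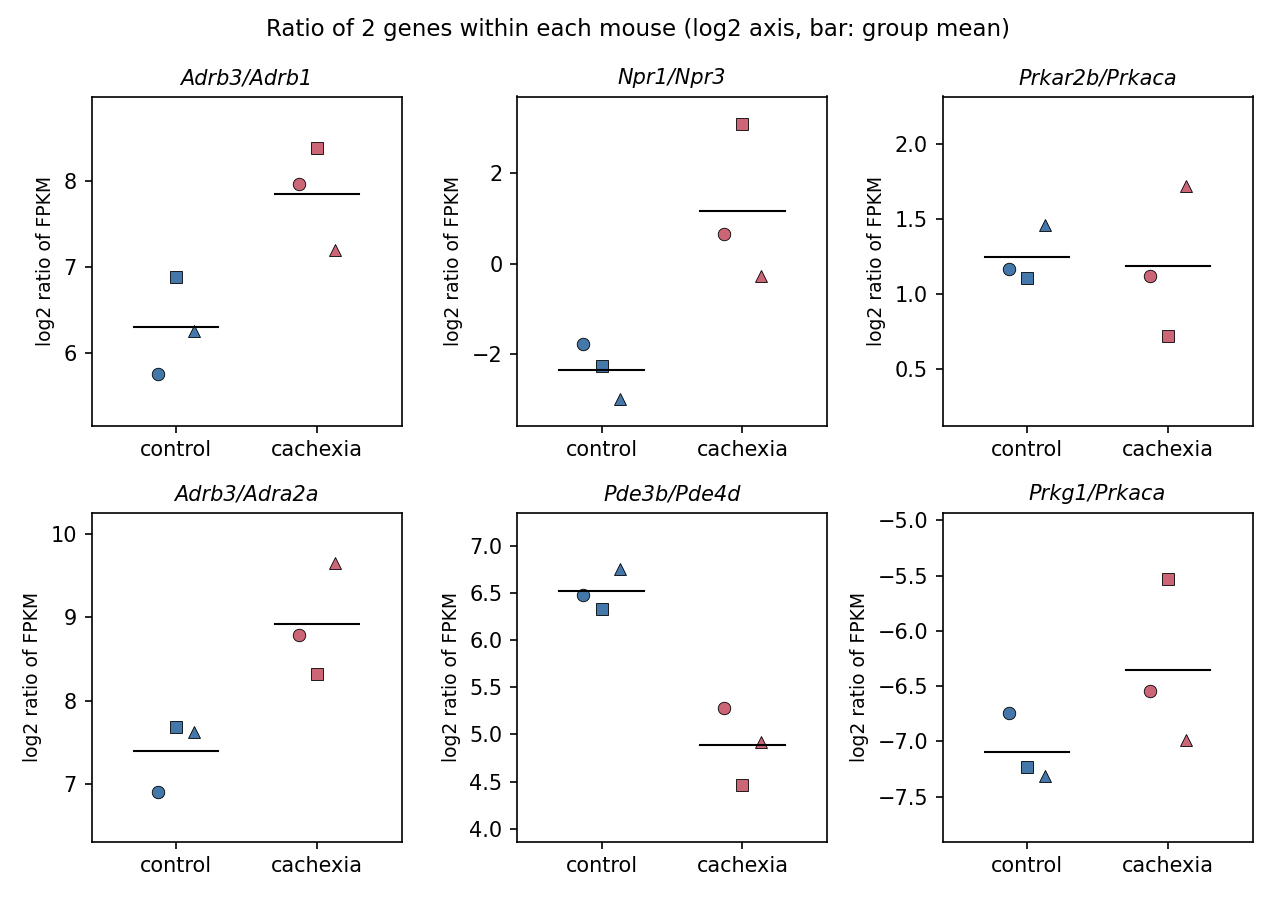
Log2 ratio of the FPKM of a pair of genes within each mouse (points) with the group mean (bar), for 6 pairs. Npr1 over Npr3 separates the groups by 3.51, while Prkar2b over Prkaca and Prkg1 over Prkaca overlap.

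Prkg1 (chr19:30567551-31765033, minus strand) encodes the cyclic GMP-dependent protein kinase, which is plentiful in smooth muscle. It was at a low level, with 4.77, 4.07 and 4.02 CPM in control and 5.31, 8.60 and 2.29 CPM in cachectic mice. Cachexia 3 was the lowest and cachexia 2 the highest of all 6 mice. The log2 fold change was 0.33 (SE 0.44, interval -0.69 to 1.36, adjusted p = 0.637 by edgeR), and these values rest on 35 to 140 counts per library. The ratio of Prkg1 to Prkaca stayed between 0.00632 and 0.0217 on the FPKM scale in all mice and overlapped between the groups (log2 difference 0.74, exact permutation p = 0.2, adjusted p = 0.24). The 2 other tested genes of the kinase and its substrates were not called, nor were the 3 tested subunits of soluble guanylyl cyclase, at an unadjusted p under 0.05 or by DESeq2 either.

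Per gene length, the 9 genes spanned a wide range, and their order differed between the groups in the middle of that range. In control mice it ran from Adrb3 (154 to 323 FPKM) and Prkar2b (146 to 222 FPKM), which overlapped, through Npr3 (69.0 to 129 FPKM), Prkaca (64.8 to 80.7 FPKM) and Pde3b (38.4 to 72.7 FPKM), each overlapping the next, to Adcy5 (21.9 to 26.9 FPKM), Npr1 (16.3 to 20.1 FPKM), Adrb1 (2.72 to 3.53 FPKM) and Prkg1 (0.509 to 0.605 FPKM), which did not. In cachectic mice Adrb3 (136 to 325 FPKM) and Prkar2b (82.0 to 135 FPKM) still led, without overlap. Npr3 (5.94 to 28.5 FPKM) stood below Pde3b, Prkaca, Npr1 and Adcy5 by its mean, although its range overlapped those of Adcy5 (15.4 to 43.3 FPKM) and Npr1 (23.7 to 50.7 FPKM). By their means Pde3b came before Prkaca and Npr1 before Adcy5, the reverse of the control order, and the ranges of each pair overlapped. Adrb1 (0.409 to 2.21 FPKM) and Prkg1 (0.287 to 1.08 FPKM) were again the lowest and overlapped.

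The rest of the pathway gives the setting for these values. Of 100 further pathway genes that were tested, 14 were higher and 10 were lower by edgeR, 24% against 17.6% of all tested genes, with a median log2 fold change of -0.01. The calls of 12 of the 24 held with each library left out in turn, and the other 12 were lost without at least 1 library. Without control 2 the counts were 6 higher and 9 lower (7.92% of all tested genes were called), without control 3 they were 6 and 6 (5.02%), and without cachexia 1 they were 9 and 10 (12.1%). With the replicate number as a block, 7 were higher and 10 were lower, beside 5.71% and 6.05% of all tested genes. Genes whose transcription cAMP induces were among those that rose: Sik1, a kinase that restrains CREB coactivators, went from 31.0 ± 4.0 to 156 ± 53.2 CPM (log2 fold change 2.34, adjusted p = 0.0025 by edgeR) and the clock gene Per1 from 41.6 ± 3.91 to 131 ± 25.3 CPM (1.66, 0.00192). Of the 11 tested genes of that list, 4 rose (Pde4d and Pde4b are the others), 1 fell and 6 were not called by edgeR. Of all tested genes, 9% were higher and 8.63% were lower. The 6 had log2 fold changes of -0.55 (Ppargc1a), -0.4 (Fos), 0.22 (Nr4a1), 0.48 (Nr4a2), 0.68 (Crem) and 2.24 (Nr4a3). The gene that fell was Dio2, the deiodinase that activates thyroid hormone, with 19, 28 and 36 counts in control and 1 count in each cachectic mouse (adjusted p = 0.00374). The part of cAMP in these values was not tested.

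Among 8 genes of receptor desensitization, Rgs2, which shortens G protein signals, rose from 30.7 ± 7.07 to 155 ± 25.5 CPM (log2 fold change 2.33, SE 0.21, adjusted p = 0.00134 by edgeR). Of 9 CREB factors and coactivators, Crtc2 had a log2 fold change of 0.49 (adjusted p = 0.0213), a call lost without control 2 (0.0895) or control 3 (0.0921). Of 9 lipolytic effectors, 2 rose and 1 fell by edgeR, beside 9% and 8.63% of all tested genes. G0s2, the inhibitor of adipose triglyceride lipase, fell from 450 ± 100 to 74.2 ± 54.8 CPM (log2 fold change -2.60, adjusted p = 0.0139 by edgeR). Pnpla2, which encodes that lipase, went from 1490 ± 152 to 3150 ± 625 CPM (1.08, 0.0197), a call lost without control 2 (0.0766), control 3 (0.0789) or cachexia 1 (0.0513). The lipid droplet gene Cidec had a log2 fold change of 0.87 (adjusted p = 0.0322), a call lost whichever library was left out, at adjusted p-values from 0.0503 to 0.115.

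**Figure D5:**
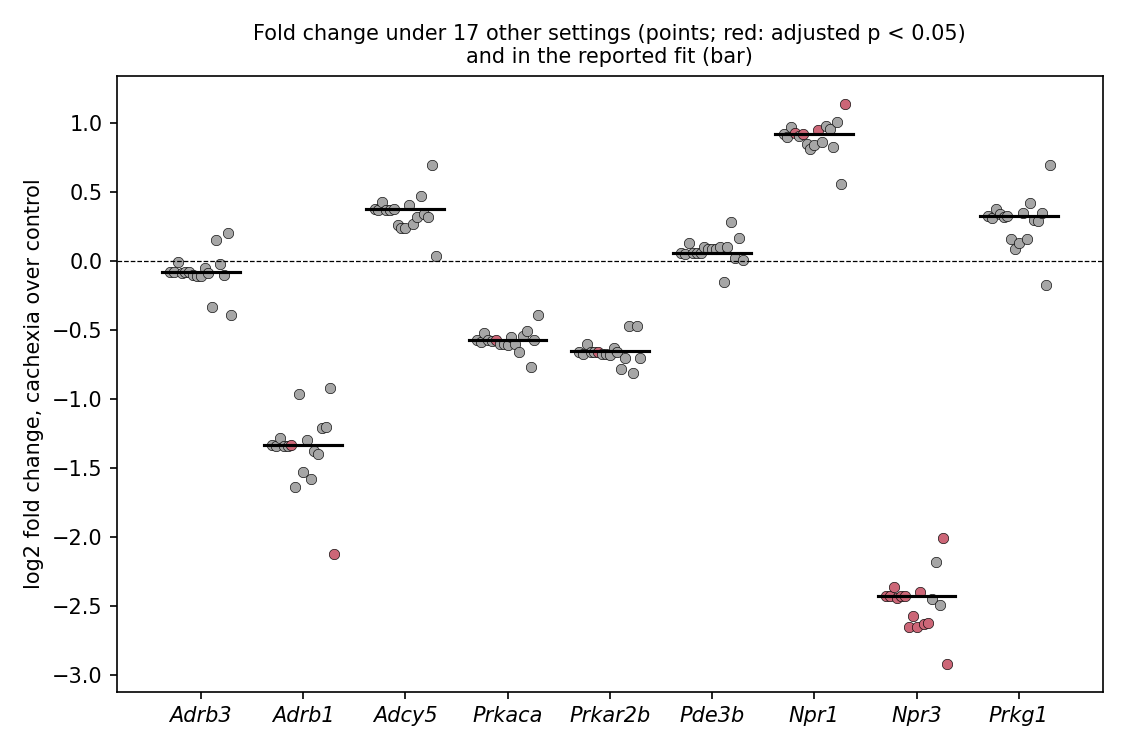
Log2 fold change of cachexia over control for each of the 9 genes in the reported fit (bar) and in 17 other settings (points, red where the adjusted p is under 0.05). Npr3 stays between -2.92 and -2.01 and Npr1 between 0.56 and 1.14, while Adrb3, Pde3b and Prkg1 lie on both sides of 0.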

How the data were processed

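RNA-seq of eWAT from 3 cachectic and 3 control mice was analyzed, and the samples were grouped by their labels. The authors extracted total RNA, made paired-end libraries, used Hisat2 for alignment and featureCounts 1.5.0-p3 for counting, and the deposited counts are not normalized. Whether strand was used is not given in the sources used here. The deposited FPKM values are those counts divided by the authors by gene length and library size. The submitters' processing notes name the build mm9, but 99.8% of the gene identifiers are in GENCODE M21 (GRCm38) and 98.3% of the matched ones share its coordinates, which are printed as deposited. The authors' table of DESeq2 1.16.1 fold changes and p-values was not used. No column was left without a sample.

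The test was the quasi-likelihood F test of edgeR 4.0.16 under R 4.3.3, after filterByExpr and TMM scaling, with no covariate. P-values of 16003 genes were adjusted together by Benjamini-Hochberg, and 0.05 was the threshold. It ran on libraries of 14928766 to 18855546 counts, whose size sets the precision of low genes. CPM are scaled by TMM. Ratios of FPKM within a mouse were compared by two-sided exact permutation tests. The labels number the samples without naming animals, each sample is called a mouse here, and p-values measure the spread between these samples. Motifs were searched in RefSeq promoters of GRCm38.p6, which held 7 of the 9 genes.

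The genes, gene lists and tests were chosen with earlier results of these data known. Named genes are the 9, up to 3 further genes per direction and pathway list with the smallest p among those called, all adrenergic and natriuretic peptide receptors and ligands, the 3 genes most like a called one (mean CPM of at least 10, log2 CPM with a pseudocount of 0.5), and 9 defining markers. An item that this rule covers is not reported here. Other settings were RLE or upper-quartile factors, plain totals, no filter, at least 10 counts in every sample, DESeq2 1.42.0, limma 3.58.1 by voom and on log2 FPKM (pseudocounts 1 and 0.1), a restriction to protein-coding genes, a minimum log2 change of 1, each sample left out, and a replicate block.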

Additional observations from a re-analysis of the deposited data

How the results depend on the processing

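Over 40 single genes, 571 of 676 values in other settings kept their direction and their side of the threshold, 75 lost the call, 26 gained it and 4 turned direction. The count of the 9 genes called lower was 4 by DESeq2 and 0 to 2 with a sample left out. The count called higher was 1 with no filter, 1 by DESeq2, 1 over protein-coding genes alone, and 0 to 1 with a sample left out. Of the other pathway genes, 6 were lower with at least 10 counts in every sample, and with a sample left out 6 to 10 were lower and 6 to 12 higher. Of all tested genes, 1609 were called when a log2 change of 1 or more in size was also asked for, and 828 (without control 3) to 2339 with a sample left out. Left-out samples moved Adrb3 between -0.39 and 0.20 (0.15 without control 2 and 0.20 without cachexia 2), Pde3b between -0.15 and 0.28 (-0.15 without control 1), Prkg1 between -0.17 and 0.70 (-0.17 without cachexia 2), and the log2 ratio of Prkar2b to Prkaca between -0.33 and 0.17 (0.04 without control 3). The deviations of same-numbered mice from the group means correlated at -0.00314, -0.0113 and 0.00849. Those of mice with different numbers correlated at -0.0239 to 0.0226. The labels do not say what the numbers mean, and these values cannot show whether same-numbered mice were handled together. With the replicate block, 7 pathway genes were higher and 10 were lower, Npr3 kept its call, and 1881 of all tested genes were called (913 higher and 968 lower). The causes were not tested. Adrb1 rested on 17 to 157 counts per library and Prkg1 on 35 to 140. With 3 samples per group no exact permutation test of a ratio can go below p = 0.1.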

Other observations

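Other cell markers bear on the tissue, and most were not compared above. Of the erythroid markers, 5 of 5 tested were higher in cachectic mice, with summed levels of 252 to 451 CPM in control and 1330 to 2850 CPM in cachectic mice. Of the neutrophil markers, 7 of 7 tested were higher, with summed levels of 7.53 to 14.5 CPM in control and 204 to 710 CPM in cachectic mice, and S100a8 rose from 2.50 to 95.2 CPM (adjusted p = 0.00276 by edgeR). Smooth muscle and pericyte markers summed to 947 to 1280 CPM in control and 443 to 790 CPM in cachectic mice, with 1 lower of 8 by edgeR (2 by DESeq2), and Acta2, the actin of smooth muscle, did not pass edgeR's test (adjusted p = 0.123). Macrophage markers had 1 higher and 1 lower of 8, and Adgre1, which marks macrophages, was at 48.0 CPM in control and 36.5 CPM in cachectic mice (adjusted p = 0.398 by edgeR). The progenitor marker Pdgfra had a log2 fold change of -0.75 (adjusted p = 0.0518 by edgeR), and of 8 progenitor markers 1 was higher and 2 were lower. Of 7 mesothelial and 7 lymphocyte markers tested, 0 were called by edgeR or DESeq2 (1 and 2 were lower at an unadjusted p under 0.05 by edgeR), and Msln had an adjusted p of 0.262. Of 2 sympathetic nerve markers tested, 0 were called by edgeR (1 was higher at an unadjusted p under 0.05 and by DESeq2), and 0 of the 7 epididymal markers had enough counts to be tested.

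Control 1 held counts that the other libraries nearly lacked, in genes chosen after their values were seen. Adcy8, an adenylyl cyclase of the nervous system, had 652 counts in control 1, 3 and 12 in the other controls, and 6, 0 and 1 in cachectic mice. Corin, the protease that activates atrial natriuretic peptide, had 169 counts in control 1 and 5 to 12 in the other libraries. Neither gene was tested by edgeR, and Npr3 kept its call without control 1.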
